A study of Mus musculus with 12 samples.

Results

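Matrix metalloproteinases (MMPs) and their tissue inhibitors (TIMPs) were described across the estrous cycle of the mouse uterus. The 10 genes were Mmp2, Mmp3, Mmp7, Mmp10, Mmp11, Mmp14, Mmp23, Timp1, Timp2 and Timp3. They were taken by symbol from the 35896 genes in the table, with earlier results of these data known. Of the 10, 9 passed the filter on low counts. The samples were 12 uteri of wild-type Swiss Webster females, an outbred strain, aged 8 to 12 weeks, with no treatment named in the labels. Each of the 4 stages (proestrus, estrus, metestrus, diestrus) had 3 uteri. Polyadenylated RNA of the whole organ was sequenced from the 3' ends of transcripts (3' TagSeq). The number after a stage name below is the number in the sample's label.

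MMPs are zinc proteases made as inactive precursors, which together cleave most proteins of the extracellular matrix, and TIMPs bind their active sites and block them. Several MMPs are secreted, whereas Mmp14 sits in the cell membrane, where it activates the Mmp2 precursor with Timp2 acting as the bridge between them. In the cycling and postpartum uterus these proteases are known for matrix turnover, under control of ovarian steroids, cytokines and growth factors.

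Levels are given as CPM, the estimated count of a gene per 1000000 counts of its library after scaling for composition. The libraries held 1652841 to 2200563 estimated counts, so that 3 counts, the most that a count of 0 is compatible with, were worth 1.37 to 1.83 CPM. Because the reads come from transcript ends, levels are compared between uteri and not between genes. Differences were tested with edgeR's quasi-likelihood test over 12052 genes and are given as log2 fold change ± SE, with Benjamini-Hochberg adjusted p and a threshold of 0.05. The labels say that uteri were collected in triplicate, and the p-values measure the spread between those uteri. In RNA of a whole organ, fewer cells of a type and less RNA per cell cannot be told apart.

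The metestrus uteri differed among themselves for these genes. Metestrus 6 was below the other 2 for Mmp2 (189 CPM against 402 and 354) and Mmp7 (1.89 CPM against 35.3 and 15.5). It was also below them for Mmp3 (7.57 against 41 and 17.9), Timp2 (228 against 353 and 314) and Timp3 (54.9 against 109 and 59.6). For Mmp23 (69.4 against 38.9 and 42.9) and Timp1 (12.6 against 7.78 and 10.1) it was above them. Metestrus 5 had the highest of the 12 values for 6 of the 10 genes (Mmp2, Mmp3, Mmp10, Mmp11, Mmp14 and Timp3), while it was highest for 907 of the 12052 tested genes (7.53%). Its Mmp11 level was 26.5 times the mean of metestrus 6 and 7, its Mmp14 level 3.83 times and its Mmp3 level 3.22 times. It is therefore given separately below, and each call of a member that involves metestrus is given with and without it. Because metestrus 5 was set apart by the values of these same genes, leaving it out narrows their spread. Adjusted p without metestrus 5 are therefore a description and not a test.

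Over the 4 stages 5 of the 9 tested genes differed (Mmp2, Mmp3, Mmp7, Mmp11 and Timp2), where 23.2% of all tested genes did. The step from proestrus to estrus held the most calls, with Mmp2, Mmp3, Mmp7, Mmp11, Mmp14 and Timp2 higher and none lower. Leaving out single uteri lost the calls of Mmp11 and Mmp14 in this step, as given below. In that contrast 17.1% of all tested genes were called, and 9.67% were called higher. The median difference over the 9 tested genes was 1.32 on the log2 scale, against 0.02 over all tested genes. Because the members were chosen with earlier results of these data known, their excess over all genes is a description and not a test. The same 6 of the 9 tested genes had estrus values that did not overlap the proestrus values, as had 39.0% of all tested genes. Mmp23, Timp1 and Timp3 passed the threshold in none of the 6 contrasts.

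**Figure D1:**
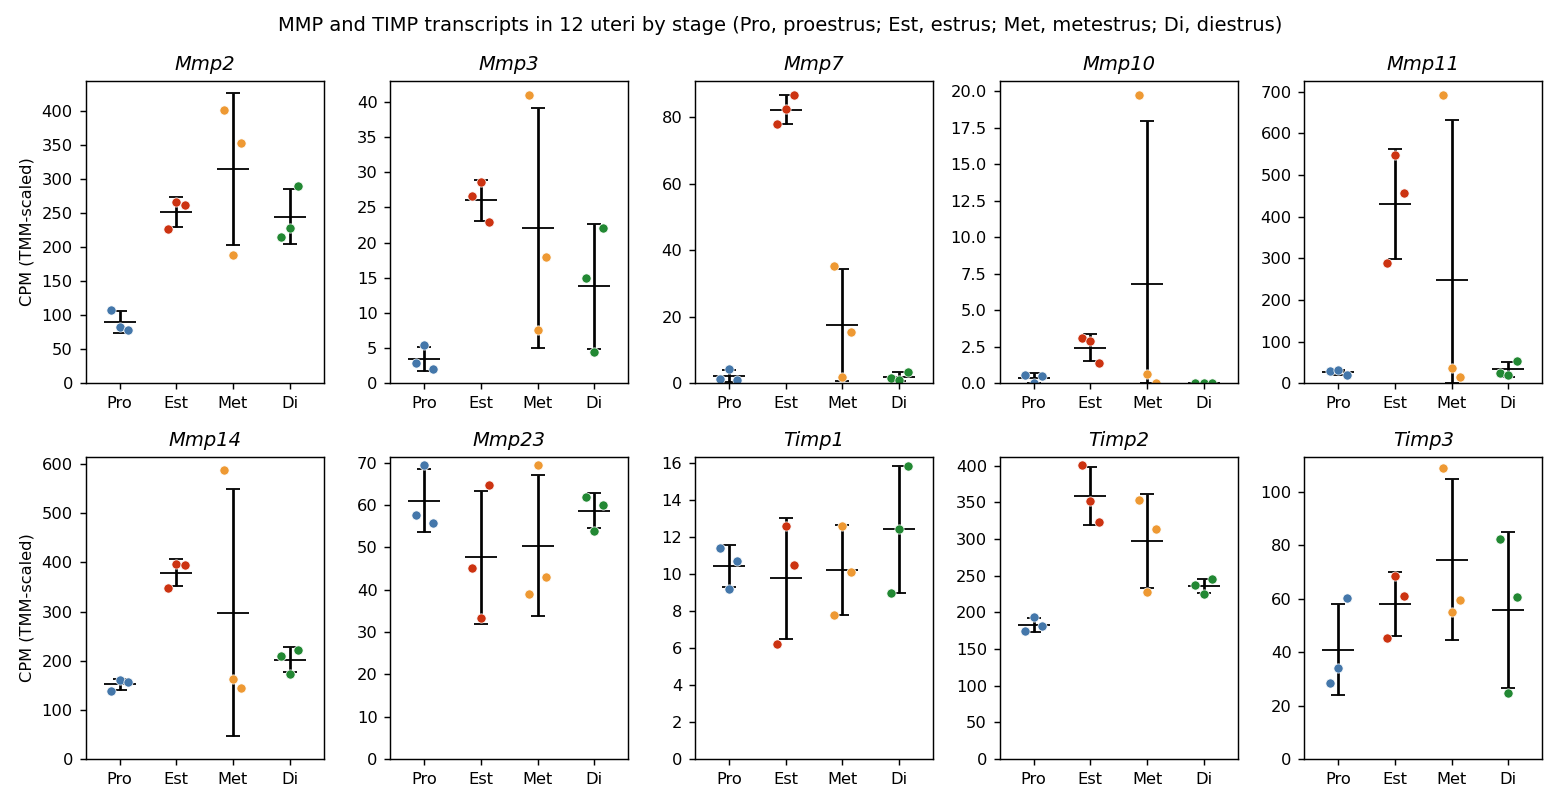
CPM of each of the 10 genes in the 12 uteri, by stage (points, uteri in label order; horizontal bars and whiskers, mean ± SD, n = 3, with whiskers ending at 0). Each axis starts at 0 and has its own scale. Mmp7 is between 77.9 and 86.6 CPM in estrus and below 5 CPM in all proestrus and diestrus uteri, and the first metestrus point, metestrus 5, is far above metestrus 6 and 7 for Mmp11 and Mmp14.

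Mmp2 encodes gelatinase A, which cleaves denatured collagen and the type of collagen found in basement membranes (ENSMUSG00000031740, GRCm38 chr8:92827291-92853420, plus strand). It was low at proestrus and higher at each of the other stages. Its level was 108, 83 and 77.6 CPM in the proestrus uteri and 227, 267 and 262 CPM in the estrus uteri. In metestrus 5, 6 and 7 it was 402, 189 and 354 CPM, and in the diestrus uteri it was 215, 229 and 290 CPM. All 3 proestrus uteri lay below all 9 others, and the other stages overlapped.

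Stage means of Mmp2 were 89.5 ± 16.1 CPM in proestrus, 252 ± 21.7 in estrus, 315 ± 112 in metestrus and 245 ± 40.1 in diestrus (SD, n = 3). Mmp2 rose from proestrus to estrus 2.82-fold (log2 1.49 ± 0.24, adjusted p = 0.00163). It was also higher in metestrus than in proestrus (1.82 ± 0.24, adjusted p = 0.00378, and 1.6 with 0.00385 without metestrus 5) and lower in proestrus than in diestrus (-1.45 ± 0.24, adjusted p = 0.00227). Between diestrus and estrus the estimate was -0.04, with a 95% interval from -0.54 to 0.45. These 3 calls passed in every alternative run, including each fit that left out 1 uterus.

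Mmp3, Mmp10 and Mmp7 lie in one cluster of MMP genes on chromosome 9, all on the plus strand (GRCm38 chr9:7445822-7455975, chr9:7502352-7510240 and chr9:7692090-7699585). Mmp3 and Mmp10 are stromelysins with a broad range of matrix substrates, and Mmp7, matrilysin, is a small MMP made by epithelia. Promoters of these 3 genes hold motifs that those of the other matched members lack, and they are shown with that of Mmp11 because these are the members that changed most or had the fewest counts. Each line is the last 120 bases before the RefSeq transcription start (GRCm38.p6), 5′ to 3′ on the gene's strand, with capitals marking TGANTCA (the AP-1 consensus) and TATAAA (the TATA box).
Mmp3, chr9:7445702-7445821: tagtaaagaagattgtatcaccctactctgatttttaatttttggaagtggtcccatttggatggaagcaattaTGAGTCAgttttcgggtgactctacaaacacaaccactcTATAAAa
Mmp10, chr9:7502222-7502341: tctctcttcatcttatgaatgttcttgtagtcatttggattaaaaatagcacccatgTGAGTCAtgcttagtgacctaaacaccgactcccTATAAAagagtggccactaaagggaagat
Mmp7, chr9:7691970-7692089: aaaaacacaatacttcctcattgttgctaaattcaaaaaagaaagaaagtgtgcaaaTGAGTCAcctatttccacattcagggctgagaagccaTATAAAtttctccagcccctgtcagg
Mmp11, chr10:75932503-75932622, minus strand: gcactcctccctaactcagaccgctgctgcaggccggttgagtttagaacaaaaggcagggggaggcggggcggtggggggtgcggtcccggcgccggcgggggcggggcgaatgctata

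In windows from 250 bases before to 50 bases after the start, searched on both strands, the 9 matched members had 11 RefSeq promoters, of which Mmp7 and Mmp23 had 2 each. TGANTCA was found in 3 of the 11, the promoters of Mmp3 and Mmp10 and the Mmp7 promoter shown, against 7.81% of 32851 RefSeq promoters. The second Mmp7 promoter, further downstream, held neither TGANTCA nor TATAAA. The first base of TGANTCA was 46 bases before the start in Mmp3 and 63 bases before it in both Mmp10 and the Mmp7 promoter shown. TATAAA was found in the same 3 promoters, against 13.6% of all. Its first base was 29 bases before the start in Mmp10 and 26 in Mmp7, which had another match at 123. In Mmp3 it was only 7 bases before the annotated start, so whether that match serves as a TATA box is not known here. GGGCGG, the GC box, was found in 6 of the 11 (those of Mmp11, Mmp14, Timp1, Timp2 and Timp3 and 1 of the pair of Mmp23), against 35.7%. Neither the steroid receptor core ACANNNTGT (6.85% of promoters) nor the estrogen response element, GGTCA and TGACC with any 3 bases between them (0.07%), was found in any of the 11. Mmp2 was not matched. A match is a description of letters in the window, and no binding was measured.

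Mmp3 (ENSMUSG00000043613) was at 2.85, 5.39 and 2.03 CPM in the proestrus uteri and at 26.6, 28.6 and 22.9 CPM in the estrus uteri. It was at 41, 7.57 and 17.9 CPM in metestrus 5, 6 and 7 and at 15, 4.45 and 22.1 CPM in diestrus 3, 4 and 5. The estrus values were close together and above all proestrus and diestrus values, whereas metestrus and diestrus each spread over more than the estrus range.

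Mmp3 rose from proestrus to estrus 7.48-fold (log2 2.9 ± 0.65, adjusted p = 0.00874). This call held in all alternatives run, with adjusted p up to 0.0478. The proestrus level rests on 5, 10 and 4 counts. Mmp3 was also called higher in metestrus than in proestrus (2.7 ± 0.66, adjusted p = 0.0364), and without metestrus 5 this was 1.88 with adjusted p = 0.0983. That call was lost in 12 of 20 alternatives, among them the fits that left out any proestrus or estrus uterus, diestrus 3 or metestrus 7, with adjusted p up to 0.154. The F test over 4 stages (adjusted p = 0.0211) was lost without estrus 4 (0.0509), proestrus 1 (0.0756) or proestrus 3 (0.0868), with limma-voom (0.104) and with counts scaled from TPM (0.0514). From diestrus to proestrus the estimate was a fall of 1.98 with adjusted p = 0.098, which passed without diestrus 4 (0.0422), metestrus 5 (0.0371) or metestrus 6 (0.0495).

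Mmp10 (ENSMUSG00000047562) was near the limit of detection in 11 uteri and did not pass the filter. It had 38 counts (19.7 CPM) in metestrus 5, against 1 and 0 counts in metestrus 6 and 7. The 3 estrus uteri had 5, 5 and 3 counts, the proestrus uteri 1, 0 and 1, and the diestrus uteri none. Mmp3 and Mmp10 share part of their sequence (14.6% of the 31-base words of Mmp3 occur in other genes, mostly Mmp10), but over the last 500 bases, where the reads fall, Mmp10 shared none.

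Mmp7 (ENSMUSG00000018623) had the widest range of the tested members, 87.6-fold between its highest and lowest uterus. The estrus uteri had 77.9, 82.4 and 86.6 CPM, and the proestrus uteri 1.14, 4.31 and 1.01 CPM. The diestrus uteri had 1.5, 0.989 and 3.4 CPM, and metestrus 5, 6 and 7 had 35.3, 1.89 and 15.5 CPM. All estrus uteri were above all other uteri, and the metestrus uteri ran from the proestrus and diestrus level to 35.3 CPM, well under the estrus level.

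In the edgeR test Mmp7 was higher in estrus than in proestrus (log2 5.21 ± 0.68, adjusted p = 0.000453) and lower in diestrus than in estrus (log2 -5.38 ± 0.69, adjusted p = 0.000162). The low side of these contrasts rests on 2, 8 and 2 counts in proestrus and on 3, 2 and 6 in diestrus, so the folds are loosely set, with 95% intervals from 3.76 to 6.67 and from -6.86 to -3.91. Both calls held in every alternative run. Between proestrus and diestrus the estimate was 0.17, with an interval from -2.24 to 2.58.

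Mmp7 was the only member called in metestrus against estrus, where it was lower (log2 -2.18 ± 0.5, adjusted p = 0.0199), against 7.56% of all tested genes called and 4.73% called lower. Without metestrus 5 the difference was -3.21 (adjusted p = 0.000916). The call was lost without estrus 3 (0.0508), estrus 4 (0.0636) or estrus 5 (0.0754). It was also lost with DESeq2 (0.094), counts scaled from TPM (0.0695) and a fit of the 2 stages alone (0.0808). Against proestrus, Mmp7 was higher in metestrus (3.03 ± 0.77, adjusted p = 0.0425) although the groups overlapped, and 11 of the 12 fits with 1 uterus left out lost that call, all except the fit without metestrus 6, with adjusted p up to 0.155. Without metestrus 5 it was 2 (adjusted p = 0.128), and the call was also lost with limma-voom (0.277) and counts scaled from TPM (0.0966). From metestrus to diestrus the estimate for Mmp7 was -3.2 ± 0.78 with adjusted p = 0.118, and it depended on the metestrus uteri. It was -2.17 with adjusted p = 0.276 without metestrus 5, and -3.71 with adjusted p = 0.00609 without metestrus 6.

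Mmp11, stromelysin-like but weak on matrix proteins, is activated inside the cell by furin-type proteases and is known from remodelling tissue and tumour stroma (ENSMUSG00000000901, GRCm38 chr10:75923222-75936496, minus strand). Its level was 28.5, 30.7 and 19.3 CPM in proestrus and 288, 549 and 457 CPM in estrus. In diestrus it was 24.9, 20.8 and 53.8 CPM. Metestrus 5 had 691 CPM, above all estrus uteri, while metestrus 6 and 7 had 36 and 16.1 CPM, within or below the range of proestrus and diestrus together.

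Mmp11 rose from proestrus to estrus 16.5-fold (log2 4.04 ± 1.02, adjusted p = 0.0164), and was lower in diestrus than in estrus (log2 -3.71 ± 1.00, adjusted p = 0.0162). The first call was lost without proestrus 1 (0.06), proestrus 2 (0.0529) or proestrus 3 (0.0732). The second was lost without diestrus 3 (0.066) or diestrus 4 (0.0657), and with counts scaled from TPM (0.0532). Between metestrus and estrus the estimate was -0.79 with a 95% interval from -2.65 to 1.07 and adjusted p = 0.619. Without metestrus 5, which was set apart by its Mmp11 value among others, the same contrast was -4.06 with adjusted p = 0.000144, given as a description. Against proestrus the metestrus estimate was 3.25 (adjusted p = 0.0814) with metestrus 5 and -0.01 (adjusted p = 0.992) without it, and it passed without metestrus 6 (0.0225) or metestrus 7 (0.0309).

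The counts of Mmp11 came mainly from its protein-coding transcript of 2288 bases (58.8% of the pooled counts) and from a 335-base transcript annotated for nonsense-mediated decay (34.3%), and both followed the gene. The longer one averaged 14.3, 251, 148 and 18.4 CPM in proestrus, estrus, metestrus and diestrus, and the shorter one averaged 8.57, 149, 84.1 and 11.9 CPM. The neighbouring gene Chchd10, which encodes a mitochondrial protein, overlaps Mmp11 and had the most similar profile of all tested genes (Pearson r = 0.979 over the 12 uteri, as a description). Chchd10 shares sequence with Mmp11 only through a 674-base transcript of Mmp11, which was assigned 0 counts, so that the Mmp11 values come from transcripts with no shared 31-base word.

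Mmp14 encodes the membrane-bound activator of Mmp2 (ENSMUSG00000000957, GRCm38 chr14:54431612-54445364, plus strand). Its level was 139, 160 and 157 CPM in proestrus, 347, 396 and 394 CPM in estrus and 210, 173 and 222 CPM in diestrus. Metestrus 5 had 588 CPM, and metestrus 6 and 7 had 163 and 144 CPM. The 3 estrus uteri were above all proestrus and diestrus uteri. Diestrus did not overlap proestrus either, although proestrus against diestrus was not called (-0.41, adjusted p = 0.61). Across the 12 uteri Mmp14 varied most like Mmp11 among the members (r = 0.959 on log2 CPM, including metestrus 5).

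Mmp14 was called higher in estrus than in proestrus (log2 1.32 ± 0.39, adjusted p = 0.0347), but each of the 6 fits that left out an estrus or proestrus uterus lost the call, with adjusted p from 0.0651 to 0.108, as did library totals in place of scaling factors (0.0507) and counts scaled from TPM (0.069). The F test over the 4 stages gave adjusted p = 0.0755, and diestrus against estrus gave -0.91 ± 0.39 with adjusted p = 0.109. Without metestrus 5 these adjusted p were 3.2e-05 and 0.000291, and metestrus was then lower than estrus (log2 -1.31, adjusted p = 0.000211). The estimate of diestrus against estrus was -0.91 in both fits. Metestrus 5 was set apart by its Mmp14 value among others, so these adjusted p are a description and not a test. With all uteri metestrus against estrus was -0.34, with an interval from -1.17 to 0.48. The F test also passed without metestrus 6 (0.0303) or metestrus 7 (0.0172).

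Mmp23 encodes an MMP with a membrane anchor at its amino end and without the hemopexin domain of most others (ENSMUSG00000029061, GRCm38 chr4:155650655-155653384, minus strand). It was at 57.6, 69.5 and 55.8 CPM in proestrus, 45.2, 33.2 and 64.6 in estrus, 38.9, 69.4 and 42.9 in metestrus and 61.8, 53.9 and 60 in diestrus. All stages overlapped with their neighbours in the cycle, and the F test gave adjusted p = 0.572. The estimate between estrus and proestrus was -0.35, with a 95% interval from -0.86 to 0.17, so that a rise of the size seen for Mmp2 lies outside the interval.

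**Figure D2:**
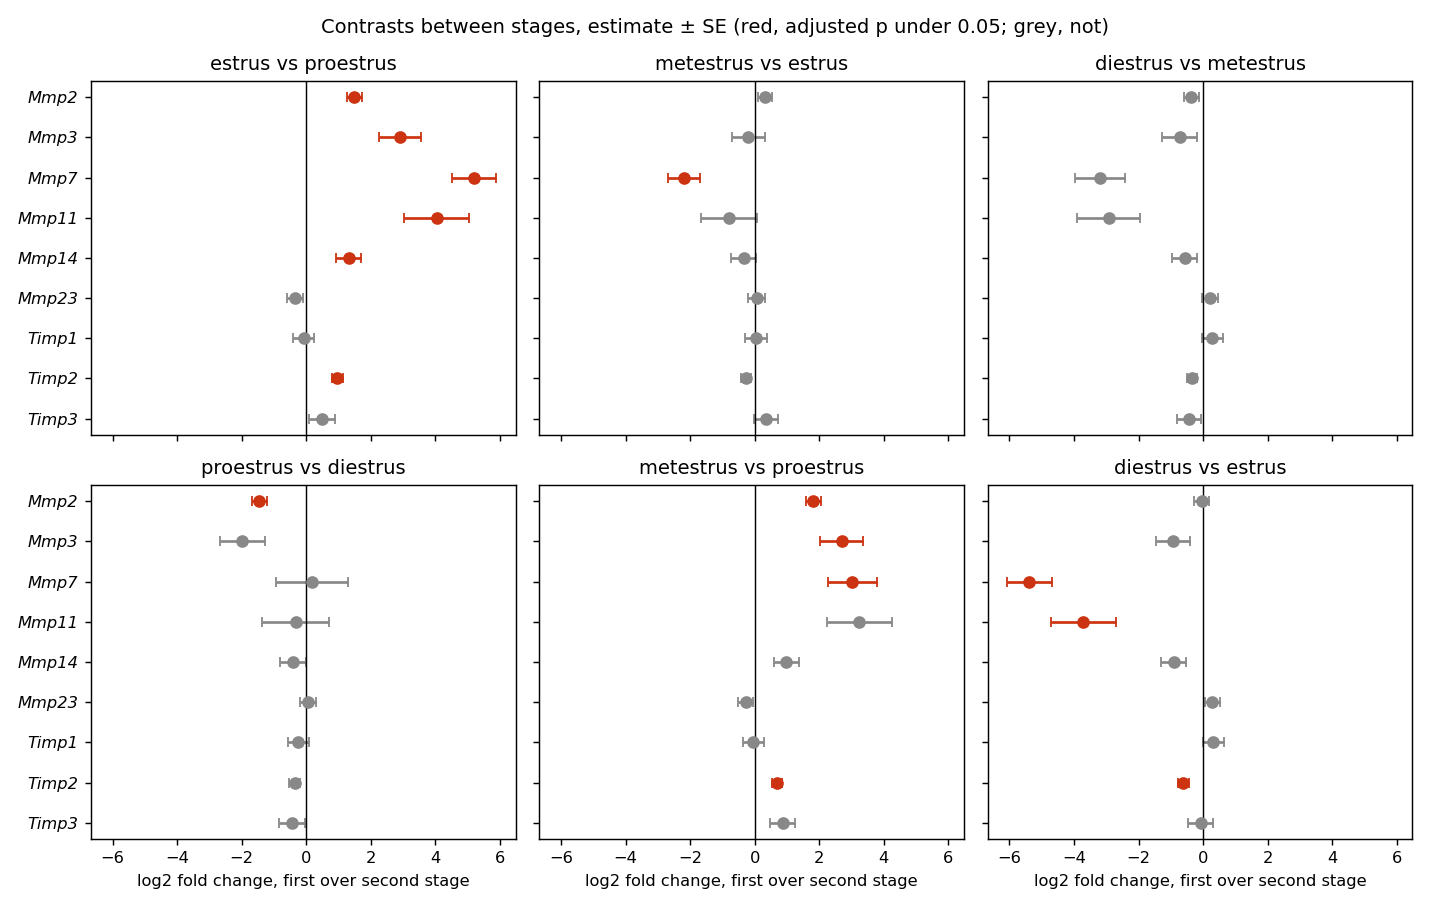
Log2 fold changes of the 9 tested genes in the 6 contrasts between stages (points, edgeR estimates with all 12 uteri; whiskers, SE; red, adjusted p under 0.05; grey, not). In estrus against proestrus 6 genes are red, from 0.97 for Timp2 to 5.21 for Mmp7, and in diestrus against metestrus none is.

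Of the 3 inhibitors, Timp2 was the only one called in any contrast. Timp2 inhibits most MMPs and takes part in activating Mmp2 (ENSMUSG00000017466, GRCm38 chr11:118301069-118355740, minus strand). It was at 175, 193 and 182 CPM in proestrus, 401, 352 and 323 in estrus, 353, 228 and 314 in metestrus and 237, 225 and 245 in diestrus. Proestrus was below all other uteri, and diestrus was below estrus, without overlap in either case. Proestrus against diestrus was nevertheless not called (-0.36, adjusted p = 0.189).

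Timp2 rose from proestrus to estrus 1.96-fold (log2 0.97 ± 0.16, adjusted p = 0.0017), and this call held in every alternative run. It was lower in diestrus than in estrus (log2 -0.61 ± 0.16, adjusted p = 0.0128), which was lost without diestrus 4 (0.0579) or estrus 3 (0.0535). It was higher in metestrus than in proestrus by 0.7 ± 0.16 (adjusted p = 0.0252). That call was lost without metestrus 5 (0.56, adjusted p = 0.0516), without metestrus 7 (0.0639) and without any of the proestrus uteri (up to 0.095). It was also lost with counts scaled from TPM (0.0585) and in a fit of the 2 stages alone (0.111). The correlation of Timp2 with Mmp3 and with Mmp7 over the 12 uteri was 0.904 in both cases, given as a description since the genes share libraries and stages.

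Timp1 encodes a secreted inhibitor that many tissues induce together with MMPs (ENSMUSG00000001131, GRCm38 chrX:20870166-20874735, plus strand). It was between 6.19 and 15.8 CPM in all uteri, at 11.4, 9.16 and 10.7 CPM in proestrus, 6.19, 12.6 and 10.5 in estrus, 7.78, 12.6 and 10.1 in metestrus and 8.97, 12.4 and 15.8 in diestrus. The stages overlapped, and the F test gave adjusted p = 0.809. From proestrus to estrus the estimate was -0.08, with a 95% interval from -0.79 to 0.62, which does not reach the 0.97 estimated for Timp2.

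Timp3 binds to the extracellular matrix and also inhibits ADAM-type proteases (ENSMUSG00000020044, GRCm38 chr10:86300372-86349506, plus strand). It was at 28.5, 34 and 60.4 CPM in proestrus, 45.2, 68.6 and 60.9 in estrus, 109, 54.9 and 59.6 in metestrus and 82.3, 24.7 and 60.6 in diestrus. The stages overlapped, and the F test gave adjusted p = 0.371.

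The Timp3 values are uncertain, because its reads cannot be told from those of another gene. Every 31-base word in the last 500 bases of its main transcript (4722 bases) is also in a retained-intron transcript of the synapsin gene Syn3 (4775 bases), annotated on the opposite strand, and the strand setting of the authors' counting is not given in the sources used here. That transcript was assigned 98% of all Syn3 counts, or 4049 over the 12 libraries, while the protein-coding transcripts of this neuronal gene were assigned 72 and 2. Timp3 was assigned between 11.7% and 33.1% of the counts of both genes in a uterus. Summed, Timp3 and Syn3 were at 176 ± 23.3 CPM in proestrus, 231 ± 33.2 in estrus, 296 ± 97.5 in metestrus and 272 ± 54.2 in diestrus (SD, n = 3). The sum passed the threshold in no contrast, and its F test gave adjusted p = 0.0813 (this sum was chosen after the data were seen).

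**Figure D3:**
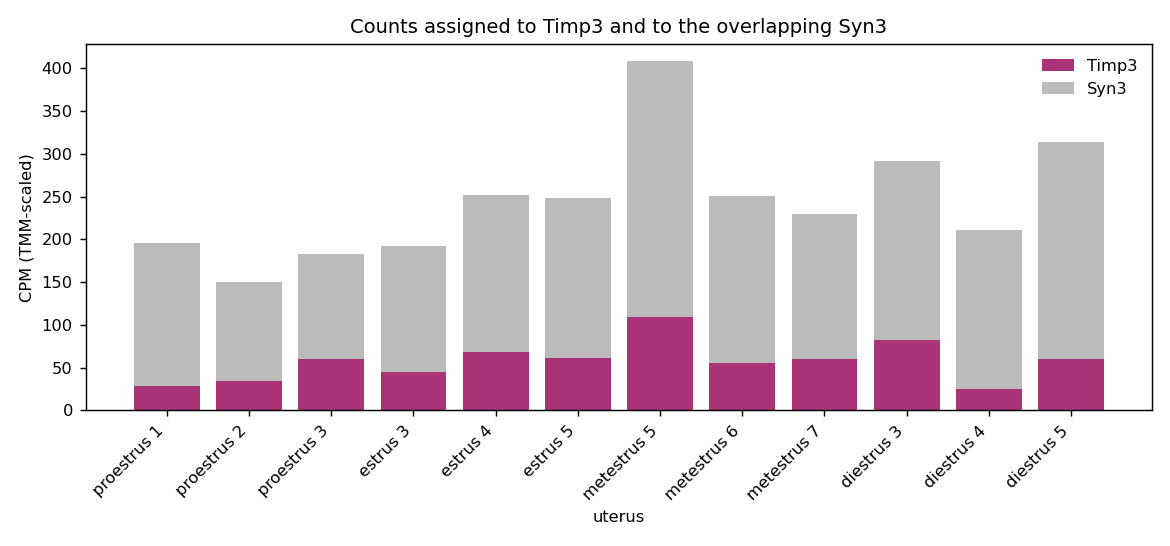
CPM assigned to Timp3 (purple) and to the overlapping Syn3 (grey) in each of the 12 uteri, stacked. The smaller share, between 11.7% and 33.1%, went to Timp3 in every uterus, and the stack is highest in metestrus 5 at 408 CPM.

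Estrus against proestrus held the most calls, and the other contrasts held between 0 and 4. In metestrus against proestrus 4 members were called, all higher (Mmp2, Mmp3, Mmp7 and Timp2), against 4.31% of all tested genes, 2.49% higher, and without metestrus 5 Mmp2 alone was. In diestrus against estrus 3 were called, all lower (Mmp7, Mmp11 and Timp2), against 22.8% of tested genes, 13.0% lower, and without diestrus 4 Mmp7 alone was. The diestrus and estrus values did not overlap for 5 of the 9 tested members (the same 3 with Mmp3 and Mmp14), as for 43.0% of tested genes. The untested Mmp10, at 5 counts or fewer in these uteri and in proestrus, did not overlap in either contrast. In proestrus against diestrus Mmp2 was called, against 8.53% of tested genes, 3.91% lower. From metestrus to diestrus edgeR called none of the 9, against 0.224% of tested genes. DESeq2 and limma-voom called none there either.

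The order of stage means differed between members. Of the 5 members that differed over the stages, 4 had their highest mean of log2 CPM in estrus, against 46.8% of all genes that differed. Mmp7, Mmp11, Mmp14, Mmp3 and Timp2 had their highest mean in estrus, and Mmp2 had its highest mean in metestrus, where it did not differ from estrus beyond the spread (0.32, interval from -0.17 to 0.82, and 0.11 without metestrus 5). For Mmp7 and Mmp11 no difference between proestrus and diestrus was detectable (0.17 and -0.33, adjusted p = 0.958 and 0.902), but their intervals, from -2.24 to 2.58 and from -2.55 to 1.88, leave room for differences of several fold either way. Mmp2 at diestrus was still 2.73-fold above proestrus. For Mmp14 and Timp2 the estimates of proestrus against diestrus were -0.41 and -0.36, with adjusted p = 0.61 and 0.189. Their intervals ran from -1.25 to 0.43 and from -0.7 to -0.03.

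**Figure D4:**
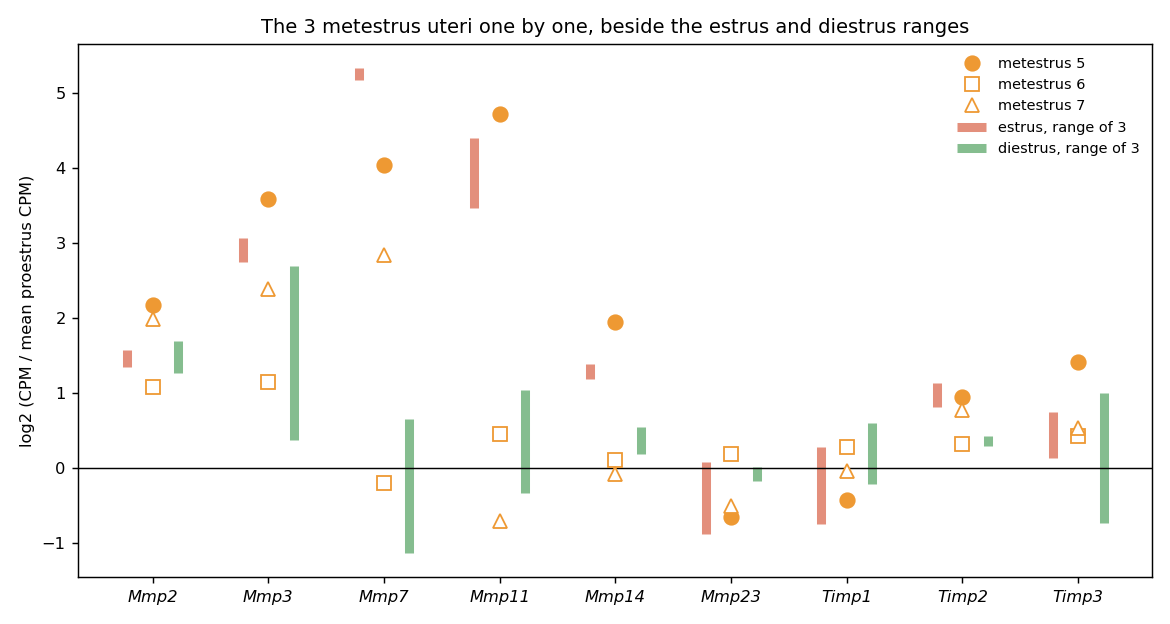
Log2 of CPM over the mean proestrus CPM for the 9 tested genes, with the 3 metestrus uteri as separate symbols and the estrus (red) and diestrus (green) ranges as bars (n = 3 each). Metestrus 5 is above the estrus range for Mmp2, Mmp3, Mmp11, Mmp14 and Timp3, and metestrus 6 and 7 are near the proestrus mean, at 0, for Mmp11 and Mmp14.

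Markers of several cell types moved with the stages. Of all tested genes, 9.67% were called higher in estrus than in proestrus and 13.0% lower in diestrus than in estrus. The 10 macrophage markers summed to between 351 and 418 CPM in proestrus and between 921 and 1020 CPM in estrus, with all 10 called higher and none at 0. The 8 smooth muscle markers summed to 6490 to 9140 CPM in proestrus and 8740 to 11200 CPM in estrus, with 4 called higher. The 10 epithelial markers ran from 1760 to 2410 CPM in proestrus, 1530 to 1890 in estrus and 946 to 1160 in diestrus. From proestrus to estrus Cldn3 and Cldn4 of that list were called higher and Msx1 lower, and from estrus to diestrus 7 were lower and 1 higher. The 8 stromal markers ran from 1020 to 1180, 1220 to 1480 and 1650 to 1970 CPM in the same stages. Their calls in estrus against proestrus went both ways, with Pdgfra and Pdgfrb higher and Hoxa10 and Hoxa11 lower, and the largest part of the sum was Vim (477 and 810 CPM, adjusted p = 0.157). Of the 10 neutrophil markers 4 were tested, and none of these was called in estrus against proestrus (S100a9 at 3.46, adjusted p = 0.0649). Their sum was 12.4 to 35.5 CPM in proestrus and 27.2 to 75.5 in estrus. The part of these cells in the levels of Mmp2, Mmp3, Mmp7, Mmp11, Mmp14 and Timp2 was not tested.

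Metestrus 5, with its high Mmp11 and Mmp14, also differed from metestrus 6 and 7 in such sums. Its stromal markers summed to 1050 CPM, against 1750 and 2120, and its epithelial markers to 1480 CPM, against 1080 and 761. Its macrophage sum of 638 CPM lay between the other 2 uteri, at 502 and 876. The 22 matrix genes, most of them collagens and laminins, summed to 8080 CPM in metestrus 5 and to 17800 and 14700 in metestrus 6 and 7. The part of these differences in the values of that uterus was not tested.

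Among the other MMPs and Timp4, 17 genes in all, 6 were tested and 2 differed over the stages. Mmp9, gelatinase B, which is made largely by leukocytes, averaged 2.47 ± 0.961 CPM in proestrus, 13.4 ± 0.98 in estrus, 2.79 ± 1.89 in metestrus and 5.06 ± 2.24 in diestrus (SD, n = 3). It was higher in estrus than in proestrus (2.39 ± 0.5, adjusted p = 0.00644) and lower in diestrus than in estrus (-1.4 ± 0.46, adjusted p = 0.0401). The low sides rest on 3 to 7 counts in proestrus and 5 to 13 in diestrus. Mmp17, a membrane-type MMP, averaged 36.8, 38.5, 21.7 and 24.1 CPM over the same stages (F test, adjusted p = 0.041). Mmp12, the macrophage metalloelastase, had 30 counts in metestrus 5 and at most 11 in any other uterus, and was not tested. Mmp1a, Mmp1b and Mmp20 had no count in any uterus.

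Of 24 tested genes of MMP activation and control, 6 were higher and 1 lower in estrus than in proestrus, with a median of 0.15. Of all tested genes 17.1% were called in this contrast and 9.67% called higher, and the same shares apply to the lists below. Cst3, which encodes the cysteine protease inhibitor cystatin C, was higher (239 to 539 CPM, 1.17 ± 0.16, adjusted p = 0.000499). From estrus to diestrus 4 genes of that list were called higher and 6 lower, against 22.8% of all tested genes called and 13.0% called lower. Among the 4, Pcsk5, a proprotein convertase of the furin type, went from 16.3 CPM in estrus to 140 CPM in diestrus (3.1 ± 0.41, adjusted p = 0.000234), and Serpine2, an inhibitor of serine proteases, from 37.7 to 137 CPM (1.87 ± 0.27, adjusted p = 0.000446). Lcn2, whose protein binds Mmp9, fell from 4220 CPM in estrus to 29 CPM in diestrus (-7.19 ± 0.96, adjusted p = 0.000236).

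Of 13 tested cathepsins, proteases of the lysosome, 9 were higher and none lower in estrus than in proestrus, with a median of 1.16. From estrus to diestrus 6 were lower and 1 higher. Ctsl went from 406 to 1860 CPM (2.19, adjusted p = 0.00026) and Ctsb from 946 to 1690 CPM (0.84, adjusted p = 0.00294), and both were lower again in diestrus, at 263 and 802 CPM (adjusted p = 1.69e-05 and 0.00034). Ctsd was the one that was higher in diestrus than in estrus, at 165 CPM in proestrus, 368 in estrus and 848 in diestrus (1.2 from estrus to diestrus, adjusted p = 0.00119). Of 23 tested ADAM, ADAMTS and ADAMTS-like genes, the last of which encode no protease, 7 were higher and 1 lower, with a median of 0.18. Adamtsl1, an ADAMTS-like gene, was among the 7 (0.97, adjusted p = 0.0266). Adam8, found mainly in leukocytes, rose from 1.43 to 14.1 CPM (3.24, adjusted p = 0.000362). Its proestrus mean was near the worth of 3 counts, so the low side of that contrast rests on few counts. Adamts5, an aggrecan- and versican-cleaving enzyme, rose from 28.3 to 72.8 CPM (1.37, adjusted p = 0.000434).

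Of the 22 matrix genes that MMPs can cleave, 5 were higher and 5 lower in estrus than in proestrus. Lama5, a laminin chain of basement membranes, was higher in estrus (31.9 to 52.1 CPM, 0.71, adjusted p = 0.00731). Vcan, the proteoglycan versican, was lower (44.9 to 11.4 CPM, -1.99, adjusted p = 0.00459). Of 6 tested genes of the AP-1 transcription factor family, 3 were higher in estrus than in proestrus and 3 lower in diestrus than in estrus. Fosl2 averaged 67.4, 106, 54.8 and 30.2 CPM over proestrus, estrus, metestrus and diestrus (F test, adjusted p = 0.000116).

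**Figure D5:**
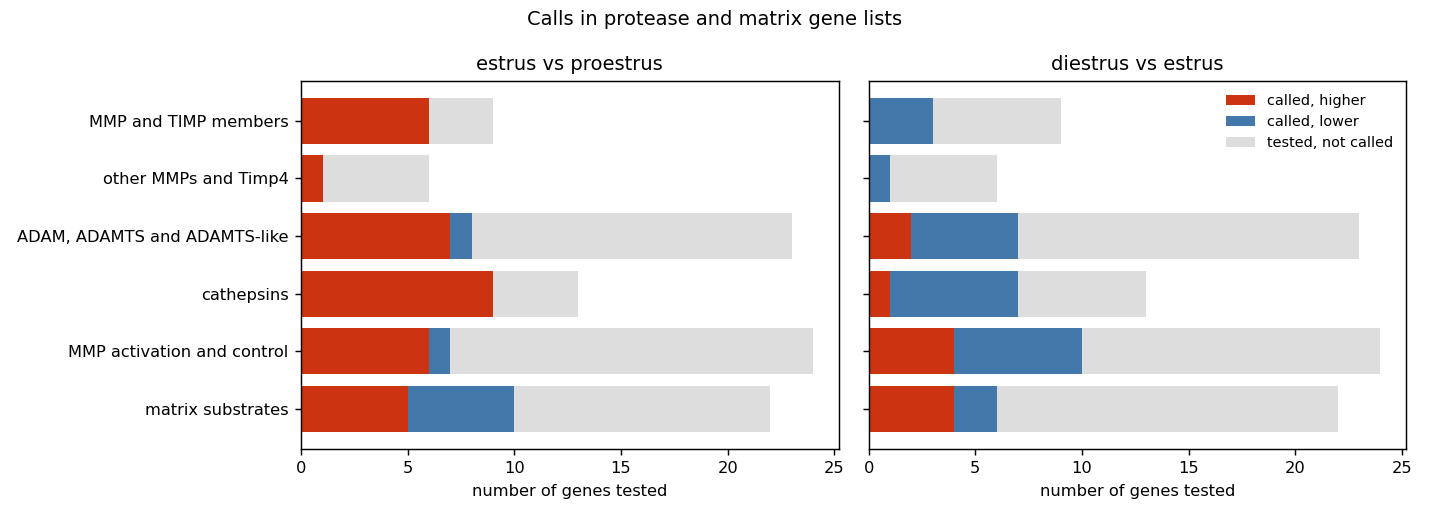
Number of tested genes called higher (red), called lower (blue) or not called (grey) in 6 gene lists, in estrus against proestrus (left) and in diestrus against estrus (right). The members have 6 of 9 higher on the left and 3 of 9 lower on the right, and the cathepsins have 9 of 13 higher on the left. Of all tested genes 9.67% were called higher on the left and 13.0% lower on the right.

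The genes whose profile over the 12 uteri was most like a member's are given as a description, by Pearson r of log2 CPM, since all share the same libraries and stages. For Mmp2 they were Klf9 (0.944), Sparcl1 (0.941) and Mpeg1 (0.933). For Mmp3 they were C2 (0.944), Dkk3 (0.941) and Ms4a7 (0.938), and for Mmp7 they were Rin2 (0.986), Zfp36l1 (0.98) and Nceh1 (0.979). For Mmp11, beside Chchd10, they were Sox4 (0.97) and Jmy (0.967), and for Timp2 they were Spg21 (0.981), Fbxo32 (0.974) and Ccdc152 (0.964).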

How the data were processed

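Whole uteri from 4 stages, 3 per stage, were profiled by 3' TagSeq from 100 ng of RNA. The authors deposited, per the file headers, estimated counts and TPM (a length-scaled level, not tested directly) for 119414 transcripts in each library, with transcript lengths. Per the submitters' processing notes the tools included kallisto, FastQC and DESeq2. Versions, the genome build, the transcript set and the strand setting are not given in the sources used here.

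Of the transcripts, 116640 (97.7%) matched GENCODE M21 (GRCm38), 99.7% of them with the same length. Estimated counts were summed to 35896 genes and rounded. edgeR 4.0.16 in R 4.3.3 was used with TMM factors (0.9076 to 1.048), its filter on low counts, stage as the single factor (8 residual degrees of freedom) and an F test and 6 contrasts, with Benjamini-Hochberg adjustment over 12052 genes. Alternatives used DESeq2 1.42.0, limma 3.58.1, other scalings and filters, counts scaled from the deposited TPM, and fits without each uterus. On data simulated from these libraries for estrus against proestrus (11765 genes), edgeR recovered 36% of 2-fold and 95% of 4-fold changes, with 2.96% false calls. The simulation gave every gene the same spread and changed few genes, in estrus only. Its rates therefore do not give the power or error rate for the members, some of which spread far more.

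All members are named, with the 3 genes most like each member that differed over the stages, any of the other MMPs and Timp4, and up to 4 genes per list with the smallest F test p among those called. Adamtsl1 and the cell type markers are named outside this rule. The members and lists were chosen with earlier results of these data known. Shared sequence was counted as shared 31-base words over all transcripts. Promoters are from RefSeq (GRCm38.p6).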

Additional observations from a re-analysis of the deposited data

How the results depend on the processing

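No called member contrast changed sign in any alternative, and of 1299 member results under alternatives 60 lost a call and 24 gained one. The 1299 cover the F tests, 15 contrasts called in the main test and 39 not called. Only a called result can lose a call, so the 60 are not to be read as a share of 1299. The number of members called over the stages was 3 with a mean of at least 50 counts (6 members left), 3 with counts scaled from TPM and 4 with limma-voom. Metestrus against estrus had 0 calls with the 50-count minimum, DESeq2, TPM-scaled counts or the 2 stages alone. Diestrus against metestrus had 3 with no filter. Proestrus against diestrus had 2 with no filter or DESeq2 and 3 with the 2 stages alone. Metestrus against proestrus had 7 with no filter, 2 with the 50-count minimum or limma-voom, and 1 with TPM-scaled counts or the 2 stages alone. Diestrus against estrus had 5 with no filter. The causes were not tested, apart from the members that a filter removes or adds: without a filter Mmp10 was tested, and its calls rest on metestrus 5 or on counts of 5 or fewer.

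Leaving out each uterus in turn gave 4 to 6 members over the stages, 4 to 6 in estrus against proestrus, 0 to 3 in metestrus against estrus, 0 to 1 in diestrus against metestrus, 1 to 2 in proestrus against diestrus, 1 to 5 in metestrus against proestrus and 1 to 4 in diestrus against estrus. A replicate block was possible only for estrus and diestrus, which share 3 label numbers. Same-numbered uteri did not deviate together (correlations -0.043, 0.013 and -0.017), and the block called 4 members, as did the same 2 stages without it, the added gene being Mmp14 (-0.9, adjusted p = 0.00174).

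Among contrasts that were not called, 16 changed sign in at least 1 alternative. Depth limits Mmp10 throughout and Mmp3 and Mmp7 in proestrus, where they had at most 10 counts. It also limits Mmp7 in diestrus (3, 2 and 6 counts) and metestrus 6 (3 counts), and Mmp3 in diestrus 4 (9 counts).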
